A study of Mus musculus with 11 samples.

Results

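Oxidative phosphorylation is the last stage of fuel oxidation, and its enzyme complexes are built from the products of the genes described here. The set held 98 protein-coding genes, found by their identifiers among the 54232 gene identifiers that were counted in every library. They were chosen by their symbol in the GENCODE M21 annotation, as subunits of complex I (Nduf a, b, c, s and v), complex II (Sdha to Sdhd), complex III (Uqcr), complex IV (Cox4 to Cox8), the ATP synthase (Atp5, also called complex V) and the protein-coding genes of the mitochondrial genome (mt-). Of the 98 members, 85 lie in the nuclear genome and 13 in the mitochondrial genome. No measured value entered the rule on symbols, although earlier results of these data were known when it was set.

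Stranded mRNA-Seq with single-end reads was performed on hepatocytes that had been purified over Percoll from the livers of adult male C57BL/6 mice of 2 genotypes on 2 diets (the exact age is not given in the sources used here). Xbp1LKO mice (KO) carry a floxed Xbp1 allele and a Cre recombinase driven by the albumin promoter, which removes exon 2 of Xbp1, a transcription factor of the unfolded protein response, in hepatocytes, whereas Xbp1 fl/fl mice (flox) carry the floxed allele alone. For up to 6 weeks, animals of each genotype ate chow or were given a Western-type diet with fructose and glucose in the drinking water, called HFS for its high content of fat and sugar. The flox chow group held 3 libraries, KO chow 2, flox HFS 3 and KO HFS 3. A chow library was made from a single mouse, whereas the hepatocytes of 2 mice were pooled for an HFS library, so that diet and pooling cannot be told apart. The p-values measure the spread between these libraries.

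Complexes I, III and IV pass electrons from NADH to oxygen and pump protons out of the mitochondrial matrix, complex II feeds electrons from succinate into the chain without pumping, and the ATP synthase lets the protons flow back to make ATP. Complexes I, III, IV and V are of double origin: most of their subunits are encoded in the nucleus, made in the cytosol and imported, whereas a few hydrophobic core subunits are encoded by mitochondrial DNA and made inside the organelle. The liver uses this machinery to oxidise fatty acids and amino acids and to supply ATP for glucose, urea and protein synthesis, and several subunits of complexes I, IV and V exist as isoforms that are typical of muscle, lung or testis rather than of liver.

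The 11 libraries held between 19191032 and 23888401 counts. Xbp1, counted over all of its exons, stood at 194, 200 and 221 CPM (counts scaled to a common library size) in flox chow and at 95.7 and 128 CPM in KO chow. In the HFS groups it stood at 301, 295 and 242 CPM in flox and at 117, 97.3 and 135 CPM in KO, so that all KO libraries were below all flox libraries of either diet. CPM here were scaled by the trimmed mean of M values (TMM), which sets the bulk of genes level between libraries. The hepatocyte markers were present in every library, but their sum, of which albumin (Alb) was the largest part, was lower in KO. The 12 markers together ranged from 141540 to 178690 CPM in flox chow and 44606 to 81042 CPM in KO chow. On HFS they ranged from 122530 to 146150 CPM in flox and 64775 to 97038 CPM in KO. Not every marker followed the sum. On chow, Alb, Apoa1, Apob, Ttr, Serpina1a, Pck1 and F2 were lower in KO without overlap, whereas Cyp2e1, Hnf4a, Tat, Cps1 and Ass1 overlapped. Cyp2e1 was at 9751, 11688 and 10978 CPM in flox chow and at 12739 and 7717 CPM in KO chow. The share of all counts taken by albumin alone was 8.06 to 10.9% in flox chow and 3.72% and 1.67% in KO chow. A smaller share for such abundant transcripts leaves more counts for all other genes, and the values below are under TMM unless library totals are named. Of the members with a negative log2 fold change in KO under TMM, 54 of 67 on chow and 49 of 61 on HFS became positive by library totals, and no positive one turned. In these bulk libraries fewer cells of a type and less RNA per cell cannot be told apart. Markers of other cells were far below those of hepatocytes, but some moved with genotype on chow. The 9 endothelial markers summed to 39.6 to 94.6 CPM in flox chow and 24.2 to 30.8 CPM in KO chow, 9 stellate markers to 12.6 to 39.6 CPM and 8.75 to 9.13 CPM, and 6 cholangiocyte markers to 8.03 to 12.2 CPM and 4.81 to 5.59 CPM, without overlap. On HFS the endothelial sums were 76.7 to 130 CPM in flox and 63.3 to 97.0 CPM in KO, the stellate sums 21.2 to 37.3 CPM and 27.99 to 58.9 CPM, and the cholangiocyte sums 3.38 to 12.7 CPM and 10.6 to 16.3 CPM. The cholangiocyte sums were mostly Sox9 and Spp1. On chow Sox9 was at 6.23, 4.85 and 4.38 CPM in flox and at 1.58 and 1.97 CPM in KO, whereas Spp1 overlapped. On HFS Sox9 and Spp1 each overlapped. Krt19, Krt7, Epcam and Cftr reached at most 0.446 CPM in any library and overlapped on chow. On HFS Epcam was at 0.048, 0 and 0.098 CPM in flox and at 0.204, 0.446 and 0.268 CPM in KO. Krt7 was at 0 CPM in every flox HFS library and at 0.081, 0.112 and 0.038 CPM in KO HFS. Both were thus higher in KO without overlap on HFS, at levels near 0, whereas Krt19 and Cftr overlapped. The 6 lymphocyte and neutrophil markers went the other way on chow, by a narrow margin and at low levels. They summed to 0.398 to 0.938 CPM in flox chow and 0.939 to 1.79 CPM in KO chow, without overlap. On HFS they summed to 1.32 to 1.93 CPM in flox and 1.38 to 6.59 CPM in KO, with overlap. Over all libraries, 10 macrophage markers summed to between 17.9 and 89.7 CPM and 3 erythroid markers to between 118 and 181 CPM. The erythroid sum was almost all Alas2, at 118 to 181 CPM. The globin genes Hba-a1 and Hbb-bs reached at most 0.0874 and 0.422 CPM in any library, so the sum is not read as an amount of erythroid cells. The part of these cells in the results was not tested.

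The mitochondrially encoded members carried no values. All 13 protein-coding mt- genes, which are the 7 complex I subunits mt-Nd1, mt-Nd2, mt-Nd3, mt-Nd4, mt-Nd4l, mt-Nd5 and mt-Nd6, cytochrome b of complex III (mt-Cytb), the 3 catalytic core subunits of complex IV (mt-Co1, mt-Co2 and mt-Co3) and the 2 ATP synthase subunits mt-Atp6 and mt-Atp8, were listed at 0 in all 11 libraries. The same held for the 2 ribosomal RNA and 22 transfer RNA genes of the mitochondrial genome, 37 genes in all, whereas every other chromosome had counts. Of the 13 genes, 4 (mt-Nd1, mt-Nd6, mt-Cytb and mt-Atp8) share no stretch of 50 bases with the annotated transcripts of any other gene, and mt-Nd2 and mt-Nd5 share 8.19% and 7.61% of theirs. For the other 7, between 51.1% of these stretches (mt-Co1) and all of them (mt-Co2) also occur in another annotated gene, mostly in unprocessed pseudogenes on chromosomes 1 and 2. Those nuclear copies held few counts: Gm13340 on chromosome 2, which shares sequence with mt-Co1, had 1584 counts over all libraries, and Gm28437 on chromosome 1, which shares sequence with mt-Co3, had 0. A zero for all 37 genes is therefore given as the content of the files and not as a level of expression, and no comparison of mitochondrially encoded members between groups, or of nuclear with mitochondrially encoded members, could be made.

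Among the 85 nuclear members, 80 passed the filter on low counts and were tested. The 5 that did not were Cox4i2, Cox7b2, Cox8b and Cox8c, isoforms known from lung, testis or muscle and heart, and a second annotated entry of Atp5o that lies fully within other genes. Cox7b2, Cox8c and the second Atp5o entry were listed at 0 in every library, and Cox4i2 and Cox8b each reached at most 1 count in 2 libraries. All 37 nuclear complex I members, all 4 of complex II and all 8 of complex III were tested, as were 14 of 18 of complex IV and 17 of 18 of complex V.

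Levels per kilobase of exon, averaged over the 11 libraries, spanned more than 3 orders of magnitude. The length counts all annotated exons of a gene together, such as 419 bases for Ndufa1, 5628 for Ndufb2 and 6443 for Atp5l. It can exceed the main transcript and lower the level, so the order of members and the medians depend partly on the annotation. The ATP synthase catalytic head was highest, with 410 CPM per kb for Atp5a1 (alpha subunit) and 391 CPM per kb for Atp5b (beta subunit). The highest member of complex IV was Cox6a1, the liver form of subunit VIa, at 362 CPM per kb, followed by Cox6b1 at 285 and Cox4i1 at 276 CPM per kb. Complexes I, II and III were led by Ndufa4 (193 CPM per kb), which carries a complex I symbol but is also known as a subunit of complex IV, by the membrane anchor Sdhd (188 CPM per kb) and by Uqcr10 (194 CPM per kb). The median over the tested members of a complex was 50.2 CPM per kb for complex I, 142 for II, 128 for III, 32.8 for IV and 48.0 for V, and 69 of the 80 tested members were above 10 CPM per kb.

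**Figure D1:**
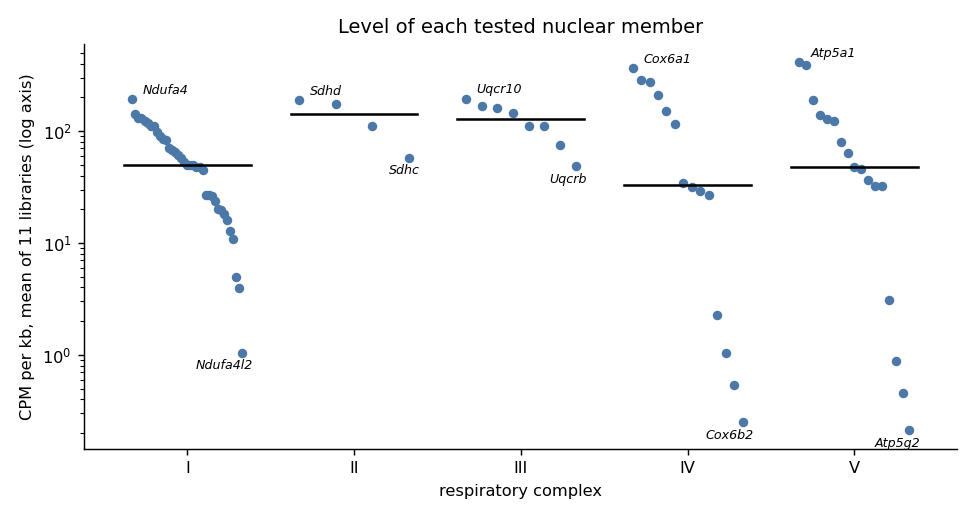
Level of each of the 80 tested nuclear members, as the mean over 11 libraries in CPM per kilobase of exon on a log axis, grouped by respiratory complex (x axis); black bars are medians over members, and the highest and lowest member of each complex is named. Complexes II and III span a narrow range, whereas complexes IV and V hold several members near or below 1 CPM per kb beside members above 100 CPM per kb, and complex I holds 1, Ndufa4l2.

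In all, 8 members lay under 3 CPM per kb, in complexes I, IV and V. Of these, Ndufa4l2 (1.04 CPM per kb), a hypoxia-associated relative of Ndufa4, Cox7a1 (1.04 CPM per kb) and Cox6a2 (0.54 CPM per kb), the muscle and heart forms of subunits VIIa and VIa, and Cox6b2 (0.25 CPM per kb), a testis form, share under 5% of their 50-base stretches with other genes. The pairs of isoforms that differ by tissue were thus far apart: Cox6a1 was at 362 and Cox6a2 at 0.54 CPM per kb, and Cox7a2 was at 150 and Cox7a1 at 1.04 CPM per kb. Cox7a2l, a relative that is known to link complexes III and IV into supercomplexes, was at 26.7 CPM per kb. The other 4 low members are uncertain as levels. Atp5g2 (0.21 CPM per kb), Cox7c (2.26 CPM per kb), Atp5g1 (0.88 CPM per kb) and Atp5l (0.46 CPM per kb) share 38.3%, 22.1%, 11.1% and 9.99% of their 50-base stretches with processed pseudogenes or other genes, and a count of uniquely placed reads would miss such reads. Among the 3 genes that encode the identical c-ring subunit of the ATP synthase, Atp5g3, which shares none, was at 190 CPM per kb, and its level cannot be set against those of Atp5g1 and Atp5g2 for that reason.

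The first comparison asked how the nuclear members differed between KO and flox hepatocytes on chow. Of 80 members, 1 was called higher and 2 lower at an adjusted p under 0.05 (edgeR quasi-likelihood test with Benjamini-Hochberg adjustment over the 13303 genes tested), where 4.75% of all genes tested were called, 1.73% higher and 3.02% lower. Ndufa9 and Ndufa1, both complex I, were lower in KO. The member called higher was Cox6a2, of complex IV, which passed the filter on low counts only through the group where it is high, so that its call is a description and is not read as support. At an unadjusted p under 0.05 there were 16 members, where 19.3% of all genes did so. The other 77 members did not pass the adjusted test, and 74 of the 80 had a log2 fold change of less than 0.5 in size.

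Ndufa9, a nuclear subunit of complex I that sits between its membrane arm and its matrix arm and is known to be needed for the junction of the 2, had the smallest p of the members. Larger fitted values, for Cox6a2 and Cox7a1, rest on few counts. Ndufa9 lies on chromosome 6 (126821721 to 126849136, minus strand, GRCm38) and shares 2.53% of its 50-base stretches with other genes. Ndufa9 stood at 125, 135 and 141 CPM in flox chow (134 ± 8.21, SD, n = 3) and at 72.4 and 54.4 CPM in KO chow (63.4 ± 12.7, SD, n = 2). The 2 groups did not overlap, and both KO libraries were below the lowest flox library by more than the spread within either group. The log2 fold change was -1.08 with a standard error of 0.16 and an adjusted p of 0.0053 (edgeR), which is a 2.11-fold lower level. In the raw counts the gene was supported by 2264, 2336 and 2835 counts in flox chow and 1696 and 1245 in KO chow, so that the difference was present before any scaling. Without KO chow replicate 2, Ndufa9 kept a log2 fold change of -0.89 but its adjusted p became 0.068 (edgeR), and it passed the test in 17 of the 18 alternative fits.

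Because Ndufa9 was the only member called on both diets, the 250 bases before its annotated start are shown (RefSeq, GRCm38.p6, chr6:126849145-126849394, minus strand, read in the direction of the gene). None of the NRF1, ETS, ERR, YY1 and XBP1 motifs searched occurs in these bases, so that they hold no capitals.
Ndufa9: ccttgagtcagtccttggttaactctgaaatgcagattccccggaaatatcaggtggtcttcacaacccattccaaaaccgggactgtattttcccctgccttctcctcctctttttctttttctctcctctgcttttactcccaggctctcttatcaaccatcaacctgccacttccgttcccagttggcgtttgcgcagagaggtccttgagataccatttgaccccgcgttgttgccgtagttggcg

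Ndufa1, a small complex I subunit that spans the inner membrane and is encoded on the X chromosome, was lower in KO on chow by a smaller amount. It stood at 62.6, 63.7 and 66.2 CPM in flox chow and at 50.9 and 43.4 CPM in KO chow, with no overlap. The log2 fold change was -0.44 with a standard error of 0.11 and an adjusted p of 0.047 (edgeR). The call lay close to the threshold: it was kept in 4 of 18 alternative fits, with log2 fold changes from -0.56 to -0.12 and adjusted p-values up to 0.40 (edgeR).

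Cox6a2, the form of cytochrome c oxidase subunit VIa known from heart and skeletal muscle, was the member called higher. It had 0, 0 and 0 counts in flox chow against 17 and 57 in KO chow. Set against a floor of 3 counts over the flox chow group, the level in KO chow was at least 29.6-fold higher, and with KO chow replicate 1 alone at least 13.4-fold. In absolute terms it remained scarce, at 0.73 and 2.49 CPM in the KO chow libraries, where the liver isoform Cox6a1 was at 289 and 278 CPM. Without KO chow replicate 2 the adjusted p was 0.11 (edgeR). Cox6a1 itself was at 268, 264 and 235 CPM in flox chow (log2 fold change 0.15, standard error 0.12, adjusted p 0.57, edgeR). The muscle markers Acta1 and Myh6 were at 0 in every library, and Ckm and Myh7 reached at most 1 count in 1 library each.

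**Figure D2:**
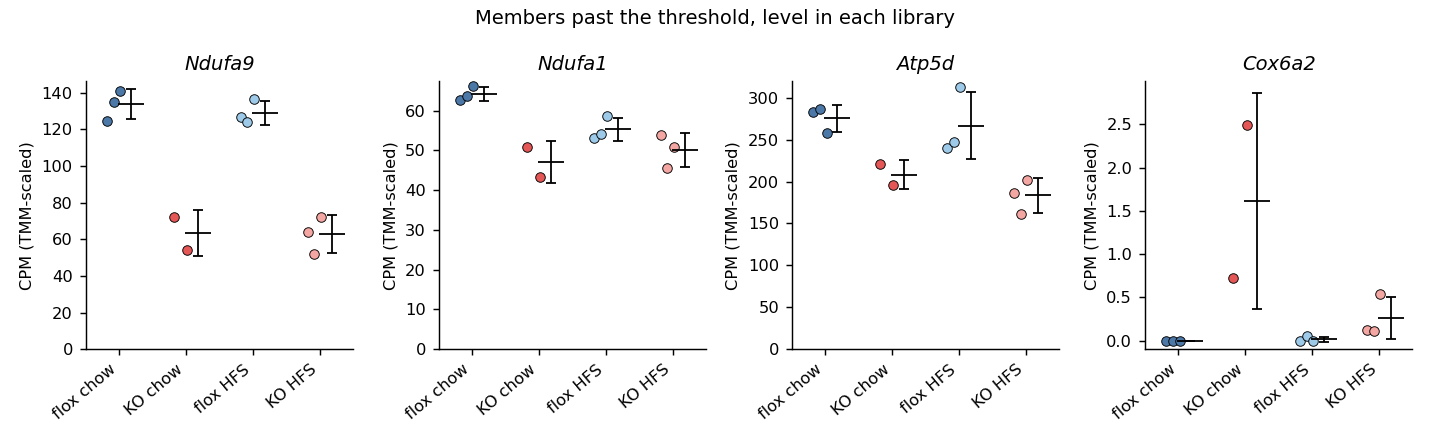
Levels of the 4 members past the threshold in at least 1 genotype comparison, in TMM-scaled CPM (y axes, each starting at 0 except for a small margin under 0 for Cox6a2), for each library (points) of the 4 groups (x axis); bars are the mean and SD of a group. Ndufa9 lies at 125 to 141 CPM in flox chow and at 52 to 72 CPM in all 5 KO libraries, whereas Cox6a2 stays below 3 CPM everywhere and is highest in 1 KO chow library.

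Beyond the called genes, most members had negative values on chow. Under TMM scaling, 67 of the 80 tested had a negative log2 fold change and their median was -0.17, where the median of all genes tested was 0.00 (by library totals the members' median was 0.15). In 30 members the KO libraries lay below all flox libraries, where 15.9% of all genes tested did so, and in 4 members above, where 15.4% did. The medians of the complexes were -0.17 for I, -0.18 for II, -0.17 for III, -0.10 for IV and -0.21 for V. Members that did not pass the test but came nearest were Cox7b, a small subunit of complex IV (log2 fold change -0.55, adjusted p 0.064, edgeR), Ndufc1, an accessory subunit of complex I (-0.34, 0.093), Uqcrb, the subunit of complex III that is known to bind ubiquinone (-0.38, 0.12), and Atp5o, the OSCP subunit of the ATP synthase stalk (-0.39, 0.12).

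The size of this shift rested on 1 library and its direction on the scaling. Without KO chow replicate 2 the median of the members was -0.06 and that of all genes -0.02. Without KO chow replicate 1 they were -0.30 and -0.01. Scaled by library totals, the median of all genes became 0.33 and that of the members 0.15, with 8 members called higher, where 20.2% of all genes were, and 1, Ndufa9, lower, where 2.37% were. The distance from the median of all genes to that of the members was -0.175 under TMM and -0.180 under library totals. Scaling moves all genes of a comparison by nearly the same amount, so this distance is kept by arithmetic and is not a check. The sign of the members' own median depended on the scaling. The sum of the hepatocyte markers and the albumin share, which were lowest in KO chow replicate 2, moved with this shift, and their part in it was not tested.

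The sum of all nuclear members showed the same dependence. It was 13215, 13273 and 13298 CPM in flox chow (13262 ± 42.3, SD, n = 3) and 13179 and 11114 CPM in KO chow (12147 ± 1460, SD, n = 2). KO chow replicate 1 was close to the flox libraries and KO chow replicate 2 well below them. By library totals the sums were 12275, 11651 and 12186 CPM in flox chow and 14320 and 13255 CPM in KO chow, which is the opposite order. In complex II, succinate dehydrogenase, the spread of KO chow was wide: Sdhd was at 235, 258 and 300 CPM in flox chow and at 233 and 154 CPM in KO chow (log2 fold change -0.45, adjusted p 0.18, edgeR), and the iron-sulfur subunit Sdhb was at 263, 253 and 260 CPM in flox chow and at 271 and 202 CPM in KO chow (-0.13, 0.67, and 0.19 by library totals).

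**Figure D3:**
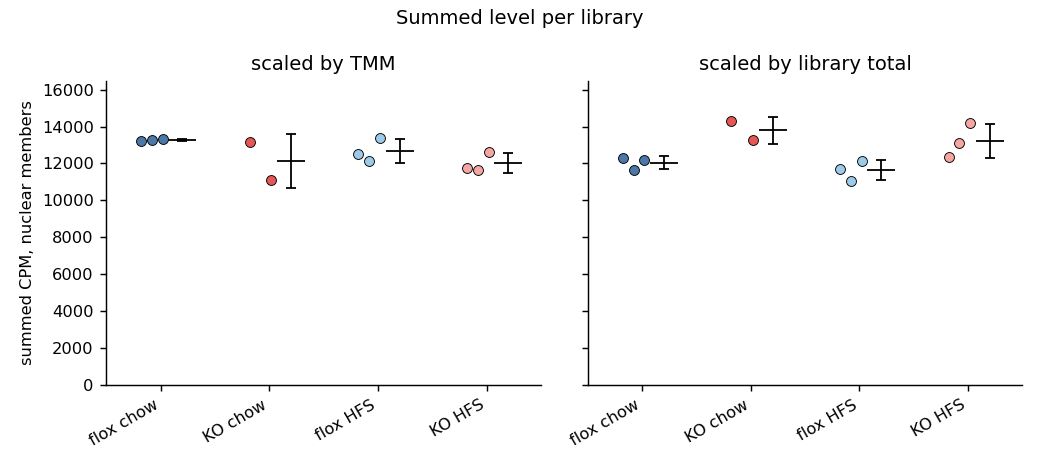
Sum of all nuclear members in each library (points), in CPM scaled by TMM (left) and by library total (right), for the 4 groups (x axis); bars are the mean and SD of a group, and both axes start at 0. Under TMM the KO means (12147 and 12014 CPM) lie below the flox means of the same diet (13262 and 12669 CPM), whereas by library totals they lie above them (13788 and 13207 against 12037 and 11631 CPM).

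On the HFS diet, the same question was asked of KO HFS and flox HFS, and 2 of 80 members were called lower and none higher (edgeR), where 4.08% of all genes tested were called, 1.92% higher and 2.16% lower. A further 13 members had an unadjusted p under 0.05, which makes 15 of 80, where 17.5% of all genes did. DESeq2 called 3 members lower and none higher, where it called 1007 of all 13303 genes, 464 of them higher. By library totals 1 member, Ndufb6, was called higher, where 9.68% of all genes were, and 1, Ndufa9, lower, where 1.47% were. Ndufa9 again had the smallest p of the members, and the larger fitted values of Cox6a2 and Cox6b2 rest on few counts. Ndufa9 stood at 127, 124 and 136 CPM in flox HFS (129 ± 6.46, SD, n = 3) and at 64.1, 51.8 and 72.4 CPM in KO HFS (62.8 ± 10.4, SD, n = 3), with every KO library below every flox library. The log2 fold change was -1.04 with a standard error of 0.14 and an adjusted p of 0.0033 (edgeR), and it passed the test in all 18 alternative fits. The difference between the genotype effects on the 2 diets was 0.04 on the log2 scale with a standard error of 0.21 (adjusted p 0.99, edgeR). By library totals the log2 fold change was still negative on both diets, at -0.76 on chow and -0.78 on HFS.

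Atp5d, the delta subunit in the central stalk of the ATP synthase, was the other member called on the HFS diet. Atp5d stood at 240, 248 and 312 CPM in flox HFS and at 187, 161 and 202 CPM in KO HFS, and the groups did not overlap. The log2 fold change was -0.54 with a standard error of 0.14 and an adjusted p of 0.0498 (edgeR), and the call was kept in 7 of 18 alternative fits. On chow Atp5d was at 283, 287 and 257 CPM in flox and at 221 and 196 CPM in KO, also without overlap under TMM. Its log2 fold change on chow was -0.40 with an adjusted p of 0.17 (edgeR). By library totals the log2 fold changes of Atp5d were smaller, at -0.28 on HFS (adjusted p 0.16, edgeR) and -0.08 on chow (adjusted p 0.70, edgeR). The difference between its genotype effects on the 2 diets was -0.14 with a standard error of 0.20 (adjusted p 0.94, edgeR).

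Other members of the ATP synthase stalks had smaller values. Atp5o, which joins the peripheral stalk to the catalytic head, was at 65.5, 65.6 and 71.8 CPM in flox HFS and at 51.6, 47.6 and 56.4 CPM in KO HFS, with a log2 fold change of -0.38 and an adjusted p of 0.096 (edgeR) and of 0.039 by DESeq2. It shares 41.6% of its 50-base stretches with other genes. Atp5k, a small subunit of the membrane part, had a log2 fold change of -0.32 (adjusted p 0.17, edgeR) and Atp5e, the epsilon subunit of the central stalk, was at 134, 130 and 143 CPM in flox HFS and at 133, 117 and 130 CPM in KO HFS. The catalytic subunits Atp5a1 and Atp5b had log2 fold changes of -0.07 and 0.04, each with a standard error of 0.13 or less.

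Ndufa1, called on chow, did not pass on the HFS diet. It was at 53.0, 54.2 and 58.6 CPM in flox HFS and at 53.9, 45.5 and 50.8 CPM in KO HFS, with overlap and a log2 fold change of -0.14 (adjusted p 0.54, edgeR) that was 0.11 by library totals. The difference between its 2 genotype effects was 0.30 with a standard error of 0.15 and did not pass the test either (adjusted p 0.82, edgeR). Cox6a2 had 0, 1 and 0 counts in flox HFS and 3, 3 and 14 in KO HFS, a ratio of 15.8 in depth-corrected counts with a 95% interval from 2.52 to 653 that covers counting error only (adjusted p 0.19, edgeR). The other restricted isoforms were near 0 in both groups, with Ndufa4l2 at 1.19, 1.27 and 1.22 CPM in flox HFS and at 0.77, 1.19 and 0.65 CPM in KO HFS.

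**Figure D4:**
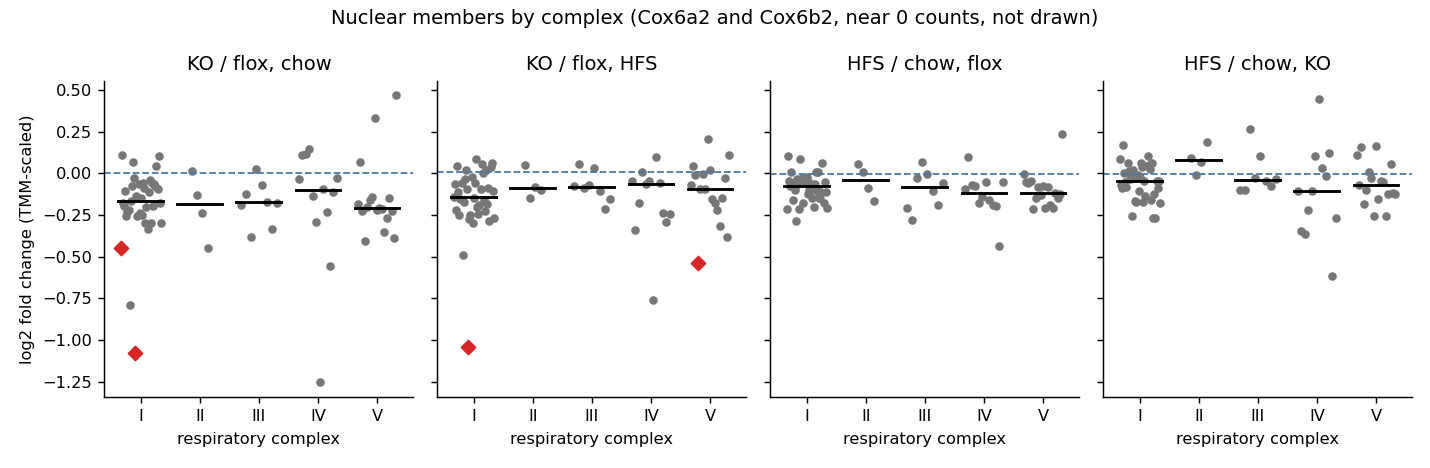
Log2 fold change of the tested nuclear members (points) by respiratory complex (x axis) in 4 comparisons (panels), with members called at an adjusted p under 0.05 as red diamonds, complex medians as black bars and the median of all genes tested as a dashed line. Cox6a2 and Cox6b2, which rest on few counts, are not drawn. Most points lie between -0.3 and 0.1, slightly below the dashed line in the genotype comparisons. Ndufa9 is called at -1.08 on chow and -1.04 on HFS, while Cox7a1 (-1.25 and -0.76) and Ndufa4l2 (-0.79 on chow), which rest on few counts, are drawn but not called.

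Over all members on the HFS diet, 61 of 80 values were negative under TMM scaling and the median was -0.10 (-0.15 without KO HFS replicate 3), beside 0.01 for all genes tested (by library totals the members' median was 0.16). The KO libraries lay below all flox libraries in 19 members, where 12.5% of all genes tested did so, and above them in 2, where 13.6% did. By complex the medians were -0.14 for I, -0.09 for II, -0.08 for III, -0.06 for IV and -0.09 for V. As on chow, scaling by library totals moved the median of all genes, to 0.27, and that of the members, to 0.16. The distance between them, -0.104 under TMM and -0.105 under library totals, was again kept by arithmetic. The summed level was 12501, 12110 and 13395 CPM in flox HFS (12669 ± 659, SD, n = 3) and 11767, 11633 and 12642 CPM in KO HFS (12014 ± 548, SD, n = 3), and these ranges overlapped.

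Values of the 2 genotype comparisons can be set side by side, since they share no library. The KO libraries were below all flox libraries on both diets in 10 members under TMM, where 6.19% of all genes tested were. They were 5 of complex I (Ndufa9, Ndufa2, Ndufa11, Ndufb11 and Ndufv3), Cox7b of complex IV, and Atp5d, Atp5j, Atp5k and Atp5o of the ATP synthase. By library totals only Ndufa9 of these kept the order on both diets, where 2.13% of all genes had it. In 1 member, Cox6a2, the KO libraries were above on both diets under TMM, where 4.96% of all genes were. By library totals 15 members were above on both diets, where 25.4% of all genes were. Ndufv3, an accessory subunit of the NADH-oxidising module, is an example of the small differences among the 10 members below under TMM. It was at 96.4, 110 and 96.5 CPM in flox chow and at 86.7 and 77.4 CPM in KO chow. On HFS it was at 82.9, 86.1 and 92.8 CPM in flox and at 73.3, 72.1 and 72.4 CPM in KO. Its log2 fold changes were -0.30 on chow (adjusted p 0.15, edgeR; 0.03 by library totals) and -0.27 on HFS (adjusted p 0.17, edgeR).

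The diet comparisons called no member. In flox mice, HFS against chow, 0 of 80 members passed (edgeR), where 0.428% of all genes tested were called. DESeq2 called none, where it called 180 of all 13303 genes. At an unadjusted p under 0.05 there were 3 members, where 8.95% of all genes did so. These were Uqcr11, a small complex III subunit, at 121, 115 and 121 CPM in flox chow and 102, 89.5 and 102 CPM in flox HFS (log2 fold change -0.28, standard error 0.10, adjusted p 0.42, edgeR), Ndufa7, an accessory subunit of complex I (-0.21, adjusted p 0.53), and Cox6b2, which is nearly absent. The values of the set were narrowly spread and mostly negative, with 68 of 80 below 0 and a median of -0.09, beside -0.01 for all genes. The flox HFS libraries lay below all flox chow libraries in 18 members, where 7.34% of all genes tested did so, and above them in none, where 6.33% did.

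In KO mice, HFS against chow, 0 of 80 members passed (edgeR), where 0.0601% of all genes tested were called. DESeq2 called none, where it called 213 of all 13303 genes. At an unadjusted p under 0.05 there were 4 members, where 12.7% of all genes did so. They were Cox6a2, Cox5b, Ndufa7 and Cox5a. The median was -0.04, 52 of 80 values were negative, and the KO HFS libraries lay below both KO chow libraries in 11 members, where 14.4% of all genes tested did so, and above them in 1, where 16.7% did. Ndufa7 was at 102, 94.0 and 97.0 CPM in flox chow, 81.8, 80.9 and 90.5 CPM in flox HFS, 107 and 97.7 CPM in KO chow and 83.7, 87.6 and 86.0 CPM in KO HFS, so that the HFS libraries lay below the chow libraries in both genotypes. Under TMM Ndufv3 also showed this order in both genotypes, which makes 2 of 80, where 1.62% of all genes did. By library totals 5 members showed it, where 1.66% of all genes did. Cox6a2 had 20 counts in KO HFS against 74 in KO chow, a depth-corrected ratio of 0.162 with a 95% interval from 0.0933 to 0.268 for counting error (adjusted p 0.24, edgeR), although 57 of the 74 came from 1 library.

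No member passed the test of whether the genotype effect differed between diets (edgeR), where 0% of all genes tested were called. At an unadjusted p under 0.05 there were 2 members, Cox6b2 and Cox5a, where 6.13% of all genes did so. DESeq2 called no member, where it called 29 of all 13303 genes. The median of that difference over members was 0.04, beside 0.01 for all genes.

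Other gene groups of the same machinery were examined for comparison, with lists chosen by function and values under TMM scaling, where library totals raise the median of all genes to 0.33 on chow and 0.27 on HFS. Of all genes tested, 4.75% were called on chow and 4.08% on HFS, so a short list without a call is not read as unaffected. The assembly factors, which build the complexes but are not part of them, had 0 of 47 tested genes called in either genotype comparison. Their medians were -0.01 on chow and -0.03 on HFS. The mitochondrial ribosomal proteins, which translate the mt- genes, had 0 of 77 called, with medians of -0.02 on both diets. The cytosolic ribosomal proteins, an abundant housekeeping class of short transcripts, had medians of 0.10 on chow and 0.13 on HFS, with 1 of 86 called higher on chow and 1 lower on HFS. The 29 tested genes of mitochondrial DNA expression, which include the polymerase and its cofactors, had medians of 0.18 and 0.06 and none was called. The 14 inner membrane carriers, uncouplers and cristae proteins also had none called, with medians of -0.05 and 0.00.

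Among 20 genes of electron carriers and coenzyme Q synthesis, 1 was called, and on both diets, where 4.75% of all genes tested were called on chow and 4.08% on HFS. Gpd2, the mitochondrial glycerol 3-phosphate dehydrogenase that passes electrons derived from cytosolic NADH to coenzyme Q and so bypasses complex I, stood at 41.9, 49.5 and 57.9 CPM in flox chow and at 95.3 and 80.2 CPM in KO chow. On HFS it was at 56.3, 58.2 and 63.8 CPM in flox and at 90.4, 110 and 113 CPM in KO. The groups did not overlap on either diet, and the log2 fold changes were 0.82 on both, with adjusted p-values of 0.013 and 0.0089 (edgeR). Among 21 regulators of mitochondrial gene expression, 1, Myc, was called higher on chow, close to the threshold, where 4.75% of all genes tested were called. Myc was at 4.96, 6.18 and 6.57 CPM in flox chow and at 53.2 and 42.6 CPM in KO chow (log2 fold change 3.02, adjusted p 0.049, edgeR). On HFS it varied between replicates, at 2.48, 18.2 and 3.67 CPM in flox and at 26.0, 5.62 and 5.90 CPM in KO, with overlap. No regulator was called on HFS. By diet, none of these lists had a called gene in either genotype, where 0.428% of all genes were called in flox and 0.0601% in KO. The cytosolic ribosomal proteins had medians of -0.25 in flox and -0.23 in KO.

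The promoters of the nuclear members were searched for motifs, to show what the members share that their symbols do not. A window of 250 bases before and 50 after the annotated start was found in RefSeq (GRCm38.p6) for 66 of the 85 nuclear members. The core of the site of nuclear respiratory factor 1, an activator of respiratory chain genes, was searched as GCATGCGC on both strands. It was found in 10 of 66 members (15.2%), where 3.05% of all 27025 genes with a window hold it. The motif overlaps its own reverse complement, so that 1 stretch can match on both strands. The motif AAGATGGC of YY1 was found in 9 members (13.6%), where 3.19% of all genes hold it, the ETS motif CCGGAAGT, bound by GABPA, in 5 (7.58%), where 4.31% do, and the ERR motif TCAAGGTCA in 2 (3.03%), where 0.466% do. The XBP1 motif TGACGTGG was in none, where 0.714% of all genes hold it. Among the YY1 matches only that of Atp5j lay before the start, at base -88, and the others began 22 to 38 bases after it. All motifs above are matches of letters in a window, without a test, and none of the data here measured binding.

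The NRF1 core is shown for 1 to 2 members of each nuclear complex that hold it, in 30 bases on the strand of the gene with the match in capitals, to let the shared letters be seen beside their different surroundings. They lie at chr15:82354356-82354385 for Ndufa6, chr17:56717693-56717722 for Ndufa11, chr4:140961206-140961235 for Sdhb, chr10:80406807-80406836 for Uqcr11, chr5:115349100-115349129 for Cox6a1 and chr5:108434429-108434458 for Atp5k.
Ndufa6: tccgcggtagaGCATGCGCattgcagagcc
Ndufa11: ctgcactgcgcGCATGCGCgcacgccttgt
Sdhb: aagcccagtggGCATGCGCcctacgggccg
Uqcr11: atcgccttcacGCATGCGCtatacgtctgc
Cox6a1: aggaacggggcGCATGCGCgctctcgctcc
Atp5k: ttcactgcggcGCATGCGCctttctggctt

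Ndufa9 holds no NRF1 core in its window but has the YY1 motif shortly after its start, at chr6:126849097-126849126, where the motif covers the ATG that opens the reading frame.
Ndufa9: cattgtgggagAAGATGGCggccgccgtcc
The other complex I members with a YY1 match were Ndufa3, Ndufb8, Ndufc1, Ndufs4, Ndufs6 and Ndufs7, none of which passed the test in any comparison.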

How the data were processed

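RNA-Seq counts of 11 hepatocyte libraries were used as the authors deposited them, as whole-number counts per gene and not normalized. The submitters' processing notes name cutadapt 1.13, STAR, HTSeq 0.6.1p1 and DESeq2 with build mm10, whereas the study's methods name kallisto, and the 2 accounts differ. In the deposited counts, 99.2% of 743 genes that lie fully within another gene on their strand, and 98.4% of 701 genes with a transcript identical to that of another gene, were at 0 in every library, so reads shared between genes appear not to have been assigned. Low counts of members with copies elsewhere are therefore uncertain. Members and lists were chosen with earlier results of these data known. Genes with enough counts (filterByExpr, minimum count 10, 13303 genes) were scaled by TMM and tested with edgeR 4.0.16 in R 4.3.3 in 1 model of 4 groups, with quasi-likelihood tests and Benjamini-Hochberg adjustment at 0.05, after the script had been tested on simulated data. CPM use the TMM-scaled library sizes. Exon lengths, over all annotated exons of a gene together, and positions are from GENCODE M21. Alternatives were DESeq2 1.42.0, RLE factors, library totals, no filter or a minimum count of 50, only the groups compared, a replicate block and each library left out. Named members were those past the threshold, the smallest p and the highest and lowest level of each complex, the isoform pairs, the restricted isoforms and all mt- genes, and any other member named (such as Cox7b, Ndufc1, Ndufv3, Cox5a, Cox7c and Atp5l) was added after its values were seen. Levels rest on total counts between 19191032 and 23888401 per library.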

Additional observations from a re-analysis of the deposited data

Results flagged for a closer look

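Cox5a, a nuclear subunit near the core of cytochrome c oxidase, had log2 fold changes of opposite sign in the 2 genotype comparisons under TMM. They were 0.11 on chow and -0.34 on HFS, with no overlap of the groups in either. Of all genes tested, 15.4% were higher in KO without overlap on chow and 12.5% lower on HFS. The share of genes with both was not counted. By library totals the Cox5a values were 0.44 on chow and -0.08 on HFS. It stood at 70.5, 65.7 and 62.6 CPM in flox chow, 71.4 and 71.5 CPM in KO chow, 66.1, 60.3 and 86.4 CPM in flox HFS and 59.8, 52.7 and 56.0 CPM in KO HFS. The difference between the comparisons was -0.45 on the log2 scale with a standard error of 0.19, and it did not pass the test over all genes (unadjusted p 0.040, adjusted p 0.79, edgeR).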

How the results depend on the processing

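Ndufa9 had a negative value in every alternative, with log2 fold changes from -1.30 to -0.76 on chow and from -1.16 to -0.78 on HFS. Called nuclear members on chow were 9 by library totals and 1 with only the groups compared, and on HFS 1 with only the groups compared and 1 with the replicate block. For diet in KO, 1 member was called with no filter on low counts. The median log2 fold change of the members turned to 0.15 on chow and 0.162 on HFS by library totals. Their mean summed level was then 12037 CPM in flox chow, 13788 in KO chow, 11631 in flox HFS and 13207 in KO HFS.

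Over all genes, the calls on chow were 632 in the main analysis, 1130 by DESeq2, 2999 by library totals, 1507 with no filter and 233 with only the groups compared. Of these, 230 were higher in the main analysis and 2684 by library totals. On HFS they were 543, against 1007 by DESeq2, 1483 by library totals (1288 higher, where the main analysis had 256) and 1438 with no filter. For diet in flox they were 57, against 180 by DESeq2 and 499 with no filter. For diet in KO they were 8, against 213 by DESeq2, 722 with no filter, 0 with only the groups compared and 19 with the replicate block. For the interaction they were 0 (816 at an unadjusted p under 0.05), against 29 by DESeq2 and 269 with no filter. The cause of these differences was not tested.

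With 1 library left out at a time, called members ranged from 0 to 6 on chow and from 1 to 3 on HFS, and calls over all genes from 69 to 762 on chow, 184 to 662 on HFS, 6 to 59 for diet in flox and 0 to 36 for diet in KO. The medians of the members ranged from -0.303 to -0.064 on chow, -0.152 (without KO HFS replicate 3) to -0.073 on HFS, -0.139 to 0.06 for diet in KO and -0.051 to 0.177 for the interaction. The ends of the chow ranges came from leaving out KO chow replicate 1 or 2, which left that group with 1 library whose spread was taken from the other groups. The lowest count on HFS came without KO HFS replicate 2, and that for diet in flox without flox HFS replicate 3.

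Replicate numbers do not pair the libraries, which came from different mice: deviations of same-numbered libraries from their group means had correlations of -0.199 to 0.231 (mean -0.009) over 15 pairs. With the replicate block, Ndufa1 on chow and Atp5d on HFS lost their calls while their log2 fold changes were -0.42 (-0.44 without the block) and -0.54 (-0.54 without it), and the calls over all genes were 455 on chow. Settings that concern the mitochondrial genome could give no value, since its genes were listed at 0, and library sizes without it equal those used.

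Cox6a2, Cox6b2 and Atp5g2 rest on few counts per library, and 2 libraries in KO chow limit every comparison that uses them. The library-totals orders on both diets and in both genotypes and the Cox6a2 bound from 1 library were added after seeing the data.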
